A study of Arabidopsis halleri and Arabidopsis lyrata subsp. petraea with 24 samples.

Results

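The 3 genes described here act in the response of plants to iron deficiency: BHLH101, PYE and AT1G47400. They are 3 of the 22810 probe sets of the ATH1 array, 1 for each gene, and all 3 were among the 17107 probe sets bright enough to be tested. They were selected on their signals on these same arrays, so their levels and differences are given as a description, with group means, SD and standard errors (SE) and with no test. The question was whether excess zinc evokes an iron deficiency signal, in which organ and in which species.

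Transcript levels were measured on 24 arrays in 8 groups of 3, from the zinc-tolerant species Arabidopsis halleri and from Arabidopsis lyrata subsp. petraea, called A. petraea below. Per the labels, the groups were whole root systems and rosette leaves of each species, from plants given 25 µM zinc (high zinc) and from plants on full mineral medium (control). The zinc content of that medium was not given in the sources used. The labels name no strain or transgene. Plants were at 10 to 16 rosette leaves, per the labels, except for 1 array, A. halleri control roots 1, whose stage is given as 1.1. Whether the arrays within a group stem from different plants is not stated, so SDs and p-values describe the spread between arrays, which may be technical.

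Plants short of iron switch on a cascade of basic helix-loop-helix (bHLH) transcription factors, best known from Arabidopsis thaliana. BHLH101 belongs to the subgroup Ib factors, which rise under iron deficiency and partner with FIT, the factor of root iron uptake. PYE (POPEYE) is a bHLH factor that restrains genes of iron transport and storage, and AT1G47400 encodes an IRONMAN peptide, a short iron-responsive peptide that promotes the deficiency response in roots and leaves. Zinc and iron share carriers, and excess zinc is known to disturb iron supply in A. thaliana.

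The printed organ labels did not follow the organ markers of the arrays, and every comparison below depends on how arrays are grouped. The leaf markers were RCA, PSAE-1, PRK and SBPASE, photosynthesis genes, and the root markers were PYK10, a root beta-glucosidase, with EXPA7 and EXPA18, expansins of root hairs. Under the printed labels the markers of 9 of 24 arrays matched the organ and those of 15 opposed it. The array titles also carry serial numbers, which can be sorted as text, so that serial 10 follows serial 1. If the k-th array in that order takes the group of printed serial k, the markers of 23 arrays matched and those of 1 opposed. This text-order grouping is inferred, is not stated by the labels and was proposed with these data known, so the match of the markers is no independent support for it. Both groupings are therefore given for the zinc responses, the comparisons between species and organs and the counts for the other iron genes. Group values outside the passages on printed labels are in text order. They share whole triplets: the arrays printed as A. halleri control leaves are A. petraea high zinc leaves in text order, and those printed as A. halleri high zinc roots are A. petraea control leaves.

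**Figure D1:**
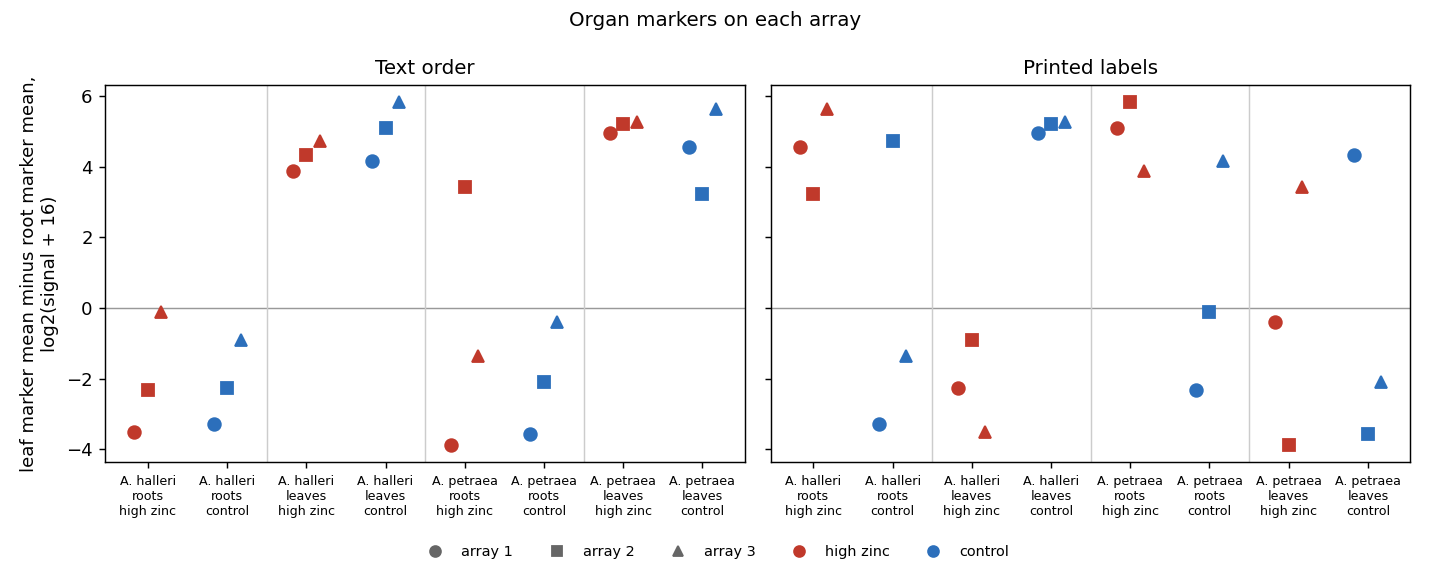
Mean of 4 leaf markers minus mean of 3 root markers on log2(signal + 16) for each array, by text order (left) and by printed label (right). Points above 0 carry more leaf marker signal. In text order 1 root array, A. petraea high zinc array 2, lies at 3.43, and the other root arrays lie below 0, while printed groups of both organs hold points on both sides.

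In text order 2 A. petraea arrays had high leaf markers together with PYK10 above the other leaf arrays, and are called the arrays with genes of both organs below. High zinc root array 2 had a marker difference of 3.43 and its best correlate was control leaf array 2 (r = 0.924 across probe sets). PYK10 was at 546.3 on this root array and at 544 on that leaf array, against 13 to 50 on the other 5 A. petraea leaf arrays. The hair expansins did not stand out as PYK10 did. EXPA7 was at 67.2 on the root array and 26.6 on the leaf array, against 24.8 to 47 on the other 5 leaf arrays. EXPA18 was at 51.3 on the root array and 82.1 on the leaf array, against 15.5 to 67.6. The A. petraea values below are also given without both arrays. In bulk tissue, fewer cells of a type and less RNA per cell cannot be told apart. Signals are linear MAS5 signals, with arrays scaled to a common trimmed mean. Differences are on log2(signal + 16), which understates changes of dim genes. The probes were designed on A. thaliana, so sequence divergence can lower a signal in either species, and levels are compared within a gene only.

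AT1G47400 was highest in A. petraea leaves under high zinc when arrays were grouped in text order. There it gave 9290.3, 1504.4 and 860.6 on the 3 high zinc leaf arrays, against 58.4, 214.8 and 95.2 on the 3 control leaf arrays. No control array reached any high zinc array, and the lowest high zinc array was 860.6 where the highest control array was 214.8. On the log2 scale the means were 11.18 ± 1.78 under high zinc and 6.95 ± 0.83 in control (SD, n = 3 each), a difference of 4.22 ± 0.76 (SE). Leaving out each of the 6 arrays in turn gave 3.22 to 4.92. Without control leaf array 2 and high zinc root array 2, the arrays with genes of both organs, it was 4.67 ± 0.81. Of all 17107 probe sets tested, 2.87% had all 3 high zinc arrays above all 3 control arrays in this comparison, and since AT1G47400 was chosen on these values nothing is read from that share.

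In A. petraea roots the peptide gene was also higher on average under high zinc, but the groups overlapped. It gave 761.4, 204.8 and 557.2 on high zinc root arrays, against 34.4, 229.9 and 163.1 on control root arrays. The overlap came from high zinc array 2, the array that opposes its organ, which lay below control array 2. The difference was 1.82 ± 0.76 with all arrays, 2.36 without high zinc array 2 and 1.14 without control array 1, the lowest control. Without both arrays with genes of both organs it was 2.36 ± 0.81. With high zinc array 2 left out, the 2 remaining high zinc arrays exceeded all 3 control arrays, as did 6.24% of all probe sets tested.

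In A. halleri roots the gene was lower in level but steady between arrays. It gave 157.4, 140.3 and 170.2 on high zinc arrays, against 52.8, 37.7 and 56.5 on control arrays. The groups did not overlap, as for 2.75% of all probe sets tested, and the means of 7.42 ± 0.13 under high zinc and 6.01 ± 0.23 in control (SD, n = 3 each) differed by 1.41 ± 0.76 (SE). The SE is the common one of the fit across all groups and is wider than these 6 arrays alone would give. Leaving out each array gave 1.28 to 1.50. This difference varied with the pseudocount, at 1.67 with a pseudocount of 1 and 0.96 with 64.

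In A. halleri leaves the difference rested on 1 array. AT1G47400 gave 517.5, 62.8 and 93.3 on high zinc arrays, against 47.7, 65 and 68.6 on control arrays. High zinc array 1 stood well above the rest, array 2 lay inside the control range, and the difference was 1.13 ± 0.76 with all arrays and 0.29 without array 1.

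**Figure D2:**
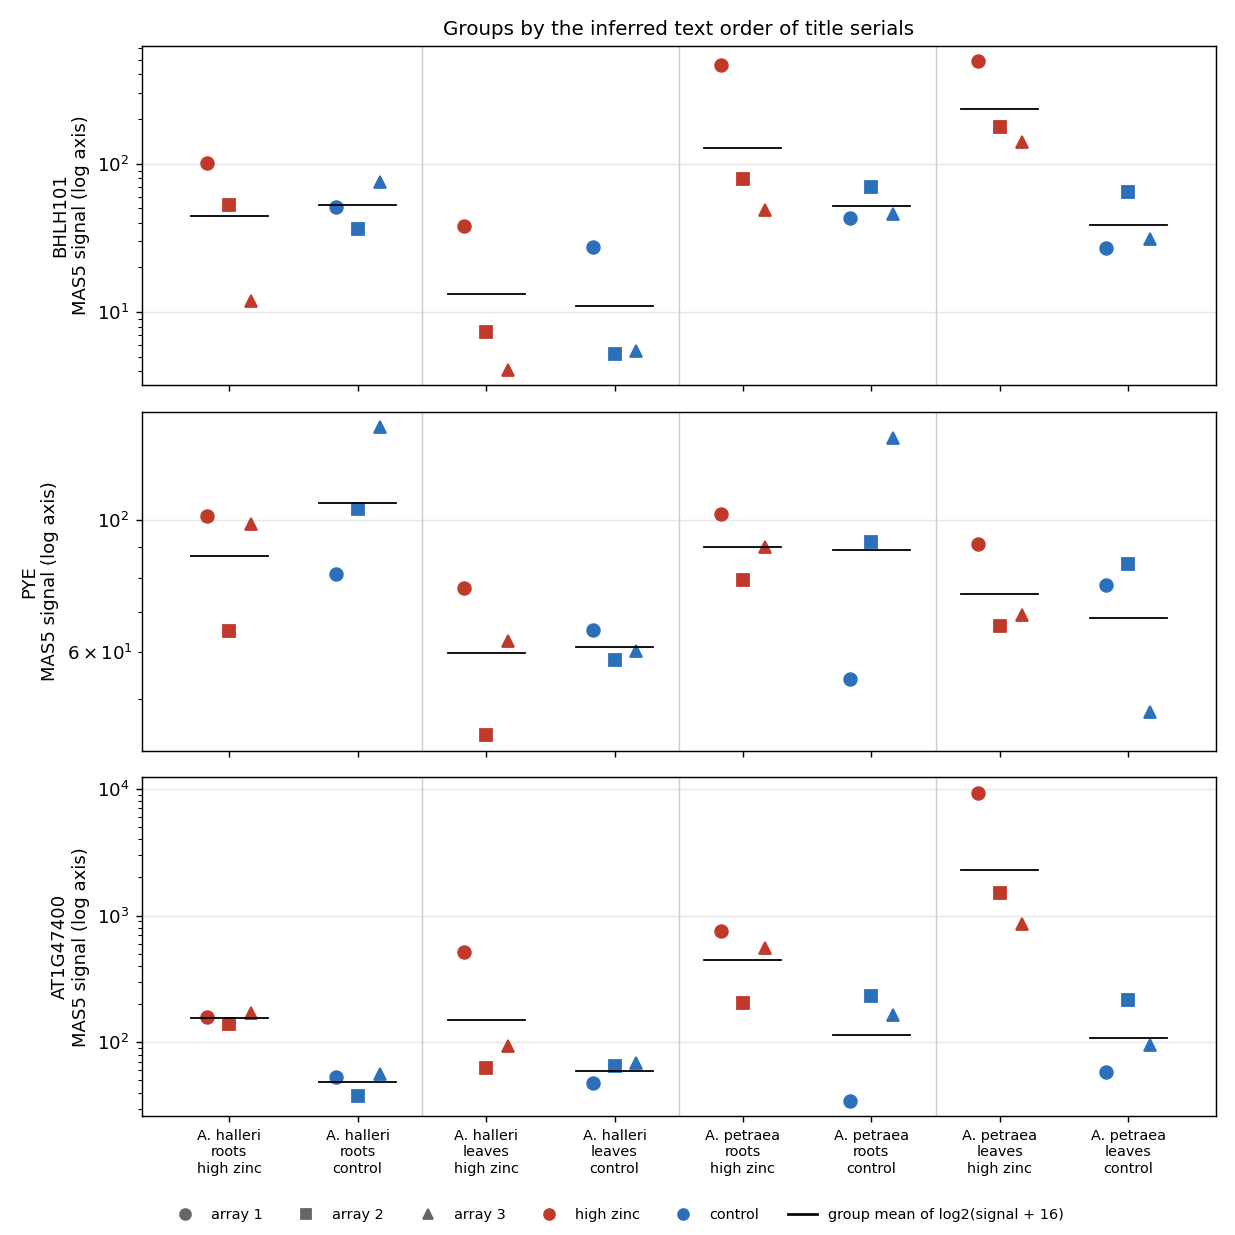
MAS5 signal (log axis) of BHLH101, PYE and AT1G47400 on each array, groups by text order, with high zinc left of its control; black lines are group means of log2(signal + 16) shown as signals. AT1G47400 in A. petraea leaves spans 860.6 to 9290.3 under high zinc and 58.4 to 214.8 in control, while PYE stays between 43.5 and 143.2 on all arrays.

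BHLH101, the subgroup Ib factor, showed its largest difference in the same place. In A. petraea leaves it gave 489.5, 177.2 and 140.4 under high zinc, against 27.2, 64 and 31.2 in control. The groups did not overlap, as for 2.87% of all probe sets tested, and nothing is read from that share. The means were 7.95 ± 0.90 and 5.77 ± 0.48 (high zinc and control, SD, n = 3 each), a difference of 2.18 ± 0.62 (SE). Leaving out each array gave 1.67 to 2.52. Without the 2 arrays with genes of both organs the difference was 2.46 ± 0.70.

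In A. petraea roots BHLH101 was high on a single array. It gave 459.9, 79.3 and 49.1 under high zinc, against 43.4, 69.2 and 45.9 in control. The difference of 1.08 ± 0.62 became 0.21 without high zinc array 1 and 1.65 without high zinc array 3. Without the arrays with genes of both organs it was 1.37 ± 0.70. High zinc array 2 lay just above the control arrays and array 3 among them.

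In A. halleri BHLH101 showed no separation by zinc. Roots gave 100.6, 53.1 and 11.8 under high zinc, against 51.5, 36.6 and 75.9 in control, a difference of -0.18 ± 0.62. Leaves gave 38, 7.3 and 4.1 under high zinc, against 27.4, 5.2 and 5.5 in control, a difference of 0.12 ± 0.62. Of these 6 leaf arrays 4 lay under the pseudocount of 16, where the pseudocount damps any difference.

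PYE, the regulator that restrains iron transport genes, varied little. Its signals ran from 43.5 to 143.2 over the 24 arrays, and the SD of log2(signal + 16) over all arrays was 0.36 for PYE, 1.24 for BHLH101 and 1.81 for AT1G47400. Leaves of A. petraea gave 91.3, 66.4 and 69.2 under high zinc, against 77.8, 84.4 and 47.7 in control, a difference of 0.11 ± 0.28. High zinc and control arrays overlapped in every organ and species in text order. The other differences were -0.26 ± 0.28 in A. halleri roots, -0.03 ± 0.28 in A. halleri leaves and 0.01 ± 0.28 in A. petraea roots. Without the arrays with genes of both organs PYE differed by 0.24 ± 0.32 in A. petraea leaves and 0.09 ± 0.32 in A. petraea roots. With an SE of 0.28 these values do not show that PYE was unchanged. Its median signal was 78.5, not far above the array medians of 43 to 71.5. Whether its probe set could show a change of the transcript at that level was not tested.

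In text order the group means placed AT1G47400 highest in A. petraea high zinc leaves. A. petraea high zinc roots, A. halleri high zinc roots and A. halleri high zinc leaves followed. The 4 control groups came below these 4. The first 2 steps in that order, of 2.33 and 1.43, exceeded the larger SD of the neighbouring groups, and so did the last step of 0.23 between A. halleri control leaves and roots. The steps between were within it. For BHLH101 only the step of 0.90 between A. petraea control leaves and A. halleri high zinc leaves exceeded the larger SD, and for PYE 0 of 7 steps did. As printed, A. halleri control leaves came first for AT1G47400, and the step of 2.89 below them exceeded the larger SD. The only printed steps that did so for the other genes were 0.60 for BHLH101 and 0.36 for PYE. The genes were chosen on these values, so the steps are a description and no test.

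Responses to zinc were compared between the species, and in text order the difference was negative for all 3 genes in both organs. For PYE in both organs and for AT1G47400 in roots it was smaller than its SE. The A. halleri response minus the A. petraea response in leaves was -3.09 ± 1.07 for AT1G47400, -2.06 ± 0.88 for BHLH101 and -0.14 ± 0.40 for PYE (SE). In roots it was -0.41 ± 1.07 for AT1G47400, -1.26 ± 0.88 for BHLH101 and -0.27 ± 0.40 for PYE. The root values changed with single arrays: for AT1G47400 they ran from -0.94 to 0.27 when arrays were left out in turn, and for BHLH101 from -1.83 to -0.39. The leaf values ran from -3.93 to -2.09 for AT1G47400 and from -2.50 to -1.55 for BHLH101. With both arrays with genes of both organs left out, the leaf values were -3.54 ± 1.09 for AT1G47400, -2.34 ± 0.94 for BHLH101 and -0.26 ± 0.43 for PYE. The root values were then -0.94 ± 1.09 for AT1G47400, -1.55 ± 0.94 for BHLH101 and -0.35 ± 0.43 for PYE. As printed, with all arrays, the leaf values were -6.38 ± 1.35 for AT1G47400, -3.11 ± 0.98 for BHLH101 and -0.12 ± 0.39 for PYE. The root values as printed were -0.72 ± 1.35 for AT1G47400, 0.88 ± 0.98 for BHLH101 and 0.03 ± 0.39 for PYE. The signs in roots thus depended on the grouping for BHLH101 and PYE.

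Averaged over both zinc levels in text order, A. halleri leaves carried less BHLH101 signal than A. petraea leaves, by -2.05 ± 0.44. They also carried less AT1G47400 signal, by -2.25 ± 0.54, both with overlapping arrays. Sequence differences between either species and the A. thaliana probes act on these comparisons, and their part was not tested. Roots differed by -0.61 ± 0.44 for BHLH101 and -1.22 ± 0.54 for AT1G47400. PYE differed between the species by -0.20 ± 0.20 in leaves and 0.09 ± 0.20 in roots. Roots minus leaves in A. halleri came to 1.20 ± 0.44 for BHLH101, 0.56 ± 0.20 for PYE and -0.09 ± 0.54 for AT1G47400. In A. petraea it came to -0.24 ± 0.44 for BHLH101, 0.27 ± 0.20 for PYE and -1.13 ± 0.54 for AT1G47400. Without the arrays with genes of both organs these were 0.05 ± 0.50 for BHLH101, 0.37 ± 0.23 for PYE and -0.64 ± 0.58 for AT1G47400. The species differences in leaves were then -1.91 ± 0.47 for BHLH101, -2.03 ± 0.55 for AT1G47400 and -0.13 ± 0.22 for PYE. In roots they were -0.76 ± 0.47, -1.49 ± 0.55 and 0.05 ± 0.22 for the same genes. As printed, leaves of A. halleri minus A. petraea gave 0.78 ± 0.49 for BHLH101 and 1.35 ± 0.67 for AT1G47400. For PYE it was 0.19 ± 0.19. In roots as printed the values were 0.47 ± 0.49 for BHLH101, 0.05 ± 0.67 for AT1G47400 and 0.05 ± 0.19 for PYE. As printed, roots minus leaves in A. halleri was -1.54 ± 0.49 for BHLH101, -0.30 ± 0.19 for PYE and -1.67 ± 0.67 for AT1G47400. In A. petraea as printed it was -1.22 ± 0.49, -0.16 ± 0.19 and -0.36 ± 0.67.

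Array number 1 stood apart in the zinc responses. In text order, high zinc array 1 was the highest of its 3 arrays for BHLH101 in 4 of 4 combinations of organ and species, for PYE in 4 and for AT1G47400 in 3. Subtracting the control array of the same number from each high zinc array gave 12 pairs, and in 10 of them BHLH101 was higher under high zinc, as was AT1G47400 in 10 and PYE in 6. The median difference of the pairs numbered 1 was 1.90 for BHLH101, 3.51 for AT1G47400 and 0.24 for PYE. Among the 8 pairs numbered 2 or 3, BHLH101 was higher in 6 with a median of 0.15, and AT1G47400 was higher in 6 with a median of 1.45. PYE was higher in 2 of these 8, with a median of -0.30. In A. petraea leaves BHLH101 was at 1.27 and 1.73 in pairs 2 and 3, above every pair numbered 2 or 3 of the other organs and species. Organ markers moved with the number in roots: the leaf minus root marker difference was -3.89 to -3.30 on the 4 root arrays numbered 1 and -1.37 to -0.10 on the 4 numbered 3. What part this has in the members' values was not tested.

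**Figure D3:**
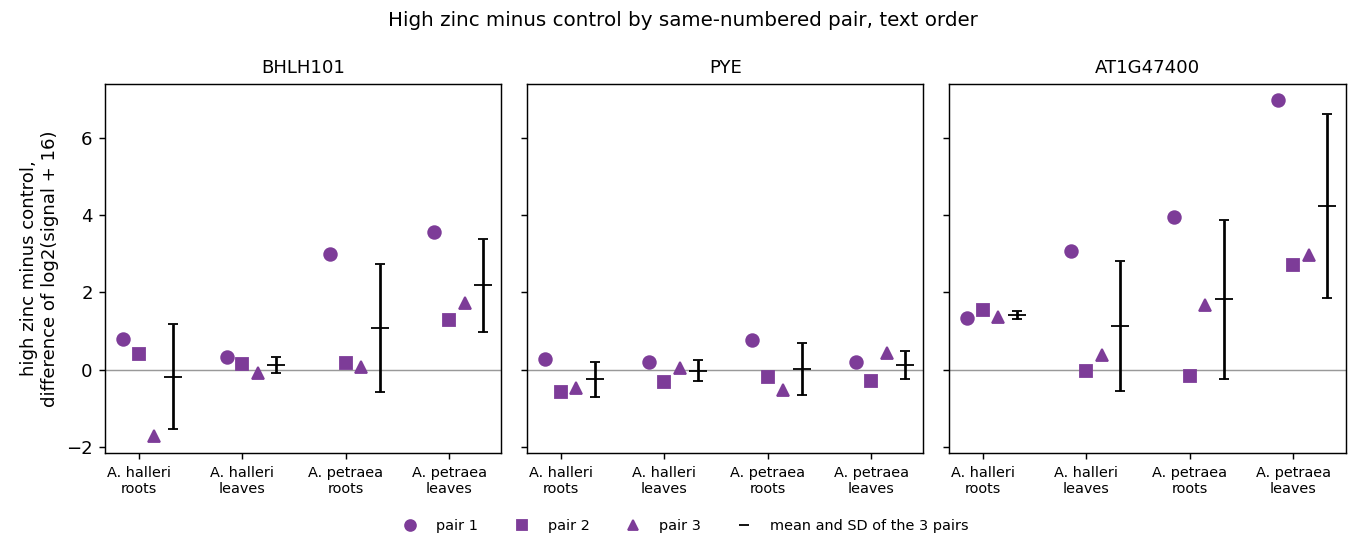
High zinc minus control difference of log2(signal + 16) in each same-numbered pair of arrays by text order, with the mean and SD of the 3 pairs beside them. Pair 1 is the highest for BHLH101 in 4 of 4 combinations of organ and species, and AT1G47400 in A. halleri roots has 3 pairs between 1.33 and 1.54.

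The printed labels gave a different picture from the same arrays. A. halleri leaves then had lower AT1G47400 under high zinc, with 37.7, 56.5 and 157.4 on high zinc arrays against 9290.3, 1504.4 and 860.6 on control arrays, a difference of -4.72 ± 0.95. BHLH101 gave 36.6, 75.9 and 100.6 under high zinc against 489.5, 177.2 and 140.4 in control, a difference of -1.59 ± 0.69. Both had all high zinc arrays below all control arrays, as did 15.5% of all probe sets tested. PYE lay the other way, with 104.4, 143.2 and 101.6 against 91.3, 66.4 and 69.2, a difference of 0.53 ± 0.27 without overlap, as for 31.8% of all probe sets. The median difference of all probe sets was itself 0.30 in this comparison. After quantile normalization it was 0.13, and PYE differed by 0.29. Those 3 high zinc arrays carried root markers above leaf markers and the 3 control arrays the reverse, so organ and zinc cannot be told apart in this comparison.

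In A. petraea leaves as printed, high zinc arrays were higher on average for AT1G47400 (1.66 ± 0.95), BHLH101 (1.52 ± 0.69) and PYE (0.65 ± 0.27), with overlap between groups for each. Without high zinc array 2 the values were 1.00 for AT1G47400 and 0.65 for BHLH101. Printed A. halleri leaves without control array 1 had -1.07 for BHLH101. In printed roots the differences were small against their errors. Organ markers matched the label on 0 of 3 printed high zinc root arrays and on 2 of 3 printed control root arrays in each species. In printed A. petraea leaves they matched on 1 of 3 arrays in each group. These printed differences therefore mix organ with zinc and cannot be read as zinc effects alone. AT1G47400 differed by -0.39 ± 0.95 in A. halleri and 0.33 ± 0.95 in A. petraea. BHLH101 differed by 0.30 ± 0.69 in A. halleri and -0.59 ± 0.69 in A. petraea, and PYE by -0.14 ± 0.27 in A. halleri and -0.17 ± 0.27 in A. petraea. The sign of the AT1G47400 leaf response in A. halleri therefore depended on the grouping, being negative as printed and positive in text order. In text order the arrays of one group were closer to each other for this gene: 22.5% of its spread lay within groups, against 34.4% as printed. For BHLH101 the shares were 32.0% and 38.2%, and for PYE 56.8% and 47.6%. The genes and the text order were both chosen with these data known, so these shares are no support for the text order.

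**Figure D4:**
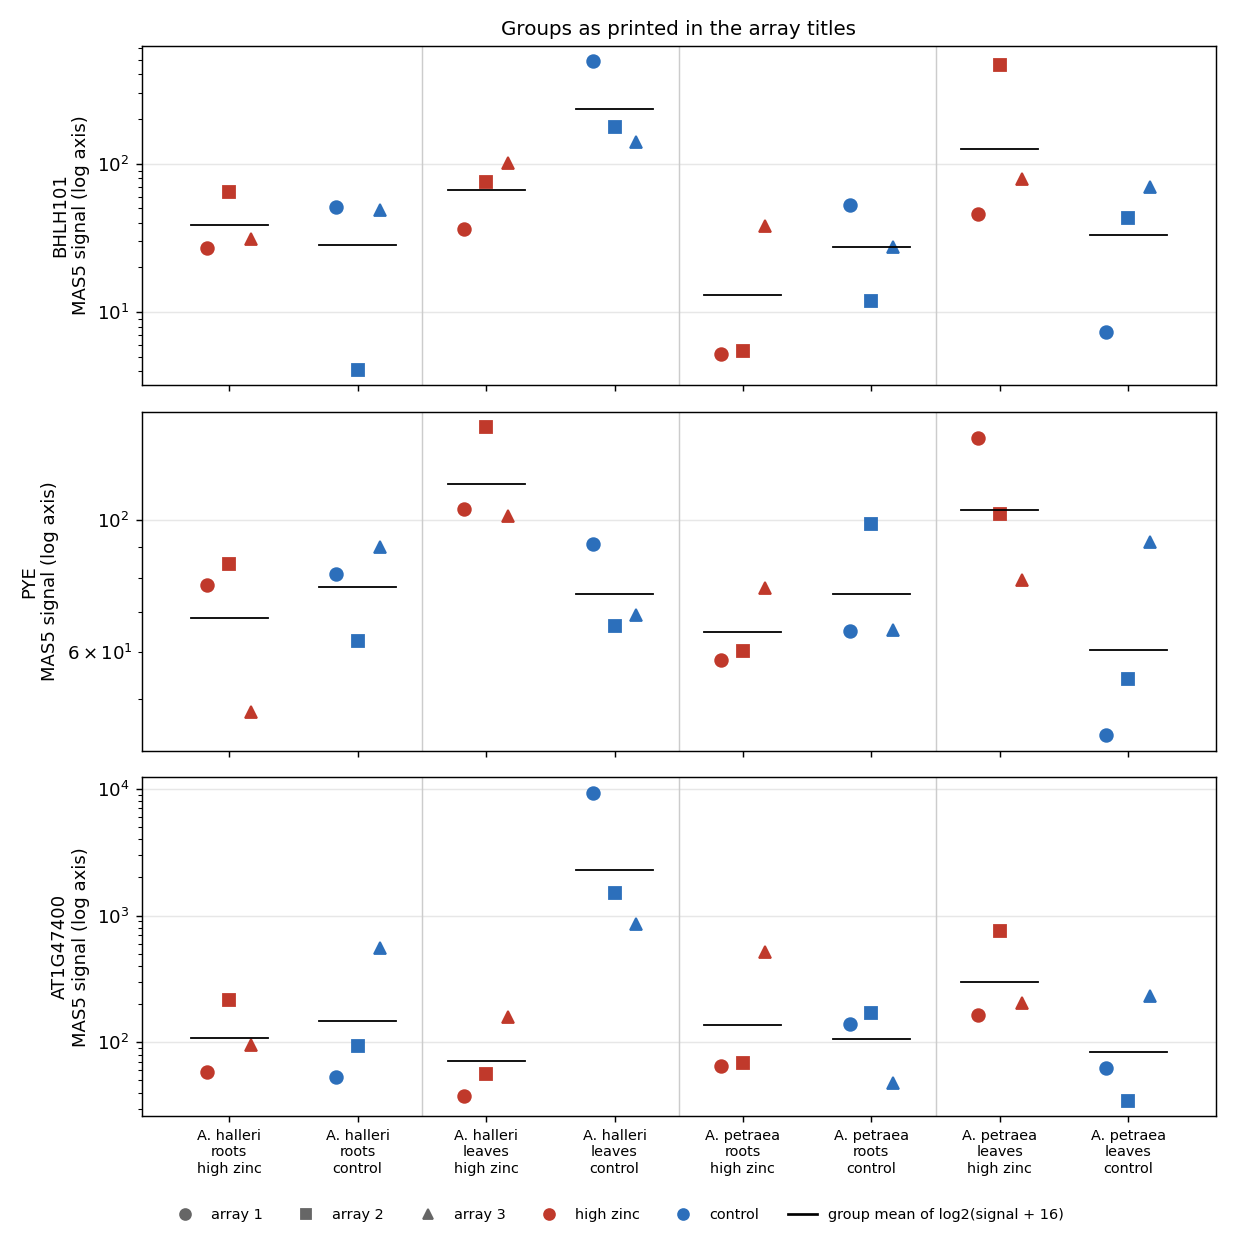
MAS5 signal (log axis) of the 3 genes on each array, groups as printed, with high zinc left of its control; black lines are group means of log2(signal + 16) shown as signals. The arrays with the highest AT1G47400, from 860.6 to 9290.3, stand here under A. halleri control leaves.

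Over the 24 arrays BHLH101 and AT1G47400 moved together more than either did with PYE. Pearson's r was 0.753 for BHLH101 and AT1G47400, 0.406 for BHLH101 and PYE and 0.185 for PYE and AT1G47400, as descriptions over arrays that fall into shared organs, species and array numbers. On the 13 arrays with higher leaf markers r between BHLH101 and AT1G47400 was 0.913, and on the 11 with higher root markers 0.515. With the text-order organ and species means removed, which leaves differences by zinc in place, r over the 24 arrays was 0.746. Both genes were selected on these same arrays, so no support is read from these values.

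**Figure D5:**
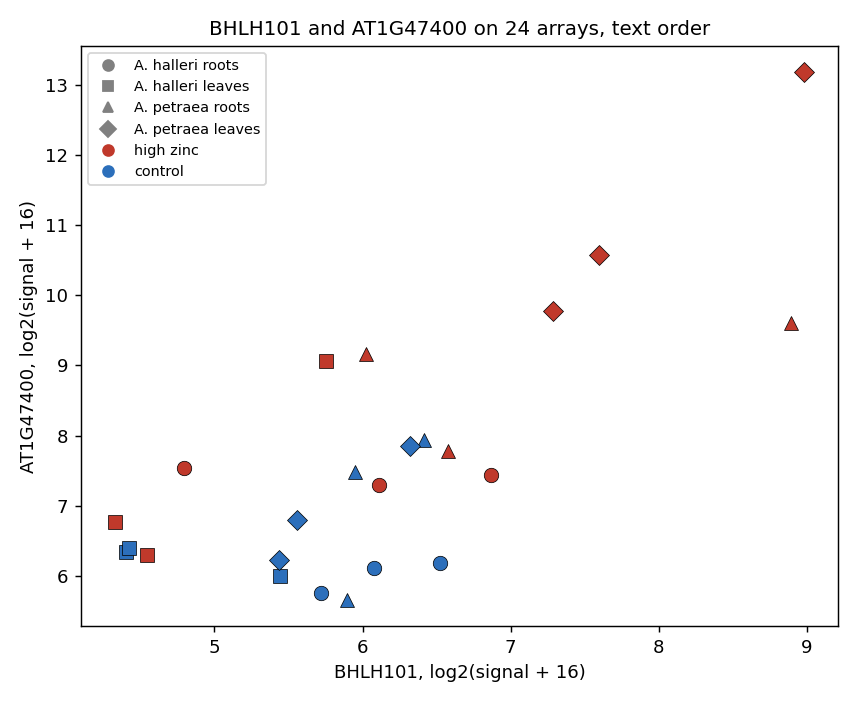
BHLH101 against AT1G47400 on log2(signal + 16), 1 point per array, with symbols for organ and species by text order and colour for zinc. The 3 A. petraea high zinc leaf arrays lie at the upper right, and r is 0.753 over the 24 arrays.

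The named gene most like both was AT5G05250, for which no role is given here, with r = 0.793 to AT1G47400 and 0.759 to BHLH101 over 24 arrays. Leaves of A. petraea gave 2484.6, 692.4 and 698.1 under high zinc, against 48.7, 760 and 76.9 in control, where control array 2, with genes of both organs, overlapped the high zinc range. In A. halleri leaves it gave 187, 28 and 74.3 under high zinc, against 36, 25.6 and 32.7 in control. Next in likeness to AT1G47400 after BHLH101 were AT4G22450, AT1G80180 and AT4G21620 (r = 0.683 to 0.667), and AT1G80180, AT4G22450 and AT2G17990 followed for BHLH101 (0.737 to 0.728). PYE was most like AT3G21570 (0.880), AT4G08830, AT5G50350, AT3G57820 and AT5G58660, dim genes whose signals ran from 14.9 to 119.5.

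Of the other genes of the iron response, those named in the platform table were tested, though their lists too were drawn up with earlier results of these data known. Of 60 listed genes in 4 lists, 12 had a name of their own in the platform table and were tested, and 48 were not named there, among them IRT1, FIT, BHLH38, BHLH39 and BHLH100. In text order limma called 0 of the 12 in any zinc comparison. That 0 says nothing of the 48 genes not named. The 12 held 7 of 17 regulators, 4 of 11 genes of uptake and coumarins, 1 of 21 of transport and 0 of 11 of storage and plastids. In leaves low signal also limited F6'H1, a gene of coumarin synthesis, at 2.6 to 18.3 on all leaf arrays but 1. It did not limit all 12. On the text-order leaf arrays ILR3 lay at 278.3 to 757.3 and BHLH115 at 145.9 to 416.6. All probe sets called were 0 in A. halleri roots, in A. halleri leaves and in A. petraea roots and for the species difference in response in roots and in leaves (0% each), and 1 in A. petraea leaves (0.00585%), AT5G65685. At an unadjusted p under 0.05 the number of the 12 was 0 in A. halleri roots, 1 in A. halleri leaves and 0 in both A. petraea organs, against 317, 96, 430 and 463 of all probe sets in A. halleri roots, A. halleri leaves, A. petraea roots and A. petraea leaves. The 2 species differences in response had 0 of the 12, with 358 probe sets in roots and 260 in leaves. With the 2 arrays of mixed organ genes left out, limma again called 0 of the 12. At an unadjusted p under 0.05 there was then 1 in A. halleri leaves (BTSL1), against 111 of all probe sets. There was 1 in A. petraea roots (S8H, against 365) and 1 in A. petraea leaves (BTSL2, 0.79 ± 0.35, against 401). The species difference in root response had 1 (S8H, against 361). A. halleri roots and the species difference in leaf response had 0, against 323 and 228.

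With all arrays, the single unadjusted case in text order was BTSL1, an E3 ligase that restrains iron uptake in roots. In A. halleri leaves it gave 29.7, 22.1 and 13.9 under high zinc, against 41, 43.4 and 43 in control, a difference of -0.65 ± 0.30 with a limma adjusted p of 1.00. In A. petraea leaves, where AT1G47400 and BHLH101 were highest, the 12 genes had a median difference of -0.20, against -0.04 for all probe sets, and ran from -2.18 to 0.50. Without the arrays with genes of both organs the median was 0.10, against 0.00 for all probe sets, and the range -0.29 to 0.84. ILR3, BHLH104, BHLH115 and BHLH34, subgroup IVc bHLH factors that act upstream of the Ib factors, differed there by 0.18, -0.12, 0.10 and -0.33, each with overlapping arrays, and by 0.41, -0.17, 0.55 and -0.28 without the arrays with genes of both organs. BHLH121, an upstream partner of the IVc factors, differed by 0.50 ± 0.82 with all arrays and 0.84 ± 0.95 without those arrays.

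The coumarin genes F6'H1 and S8H, which make iron-mobilising coumarins in roots, were high on the A. petraea control leaf array with genes of both organs. In A. petraea leaves F6'H1 gave 4, 3.1 and 5.3 under high zinc, against 4.3, 1976.6 and 2.6 in control, and S8H gave 48.3, 35.8 and 47.6 against 42.8, 478.5 and 40. The high values lay on control leaf array 2 and on no other leaf array. In A. petraea roots S8H gave 2252.2, 277.9 and 222.9 under high zinc, against 172, 380.5 and 74.3 in control, a difference of 1.52 ± 0.77 with a limma adjusted p of 1.00, and of 1.96 ± 0.70 without the arrays with genes of both organs (limma adjusted p = 1.00). MTP8, a vacuolar manganese transporter, gave 429.4, 210 and 320 under high zinc against 82, 150.3 and 160 in control in the same roots, without overlap, a difference of 1.19 ± 0.70 with a limma adjusted p of 1.00. Without those arrays the MTP8 difference was 1.45 ± 0.74. BTSL2 lay the other way in the same roots, at 109.2, 97.9 and 127.5 under high zinc against 142.4, 174.1 and 171.6, also without overlap. It differed by -0.49 ± 0.37 with all arrays and by -0.41 ± 0.35 without those arrays. The share of all probe sets without overlap in this comparison is not given here, so nothing is read from either gene.

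As printed, limma also called 0 of the 12 in each comparison. All probe sets called were 12 in A. halleri roots (0.0701%), 2975 in A. halleri leaves (17.4%), 0 in A. petraea roots and 0 in A. petraea leaves (0%), 0 for the species difference in root response (0%) and 61 for that in leaf response (0.357%). At an unadjusted p under 0.05 the 12 genes had 4 in A. halleri leaves, where 36.0% of all probe sets were, and 0 in each other comparison, where 1724, 1189, 659, 492 and 2874 probe sets were, in A. halleri roots, A. petraea roots, A. petraea leaves and the species differences in roots and leaves. The 4 were BHLH34, BTSL1, BTSL2 and F6'H1, all higher on the printed high zinc leaf arrays, which carried root markers. F6'H1 gave 1501.7, 152.6 and 1158.1 there, against 4, 3.1 and 5.3 on the control arrays (limma adjusted p = 0.0795).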

How the data were processed

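Per the submitters' processing notes, the authors deposited MAS5 signals, a linear intensity for each probe set. MAS5 settings were not given in the sources used. With 2% of probe sets trimmed at each end, the mean was 100.004 to 100.011 on every array, and medians ran from 43 to 71.5. Each array's printed group and replicate came from its title. The 2 arrays titled replicate 1 of A. halleri control roots were kept, the later called replicate 3. Signals were taken as log2(signal + 16), and the probe sets in the lowest 25% of mean signal were left out. limma 3.58.1 in R 4.3.3 fitted the 8 group means to all 24 arrays (16 residual degrees of freedom), once per grouping, with eBayes trend and robust settings and two-sided tests. Calls had a Benjamini-Hochberg adjusted p under 0.05 over 17107 probe sets. The script was tested on simulated data.

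Gene names came from the platform annotation, possibly old, which gives 1 gene for 13513 probe sets, several for 503 and none here for 8794. The rule for named genes took the 3 members, the genes of 4 iron lists with a probe set of their own (the brightest of several), and the 5 named genes most like each member by Pearson's r. A gene the table calls FRO1 was left out, because its gene identifier is not that of the listed ferric reductase. The members and lists were chosen with earlier results of these data known. Same-numbered high zinc and control arrays deviated together from their group means in text order (r = 0.20 to 0.81) in all but A. petraea roots, where r was as low as -0.05, and as printed only in A. petraea roots (0.11 to 0.38). The model had no block; fits with a block, other pseudocounts, no filter, quantile normalization and left-out arrays were tried. The number of arrays limits the precision of every value.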

Additional observations from a re-analysis of the deposited data

How the results depend on the processing

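The 12 iron genes had 0 calls under every alternative run. Of the members' differences under alternatives, 521 stayed within 1 SD of their reported value and 4 moved further. These were AT1G47400 in A. halleri roots in text order (1.67 with a pseudocount of 1 and 0.96 with 64), the species difference in root response of BHLH101 as printed (1.93 with a pseudocount of 1) and PYE in A. halleri leaves as printed (0.29 after quantile normalization). Leaving out 1 of 3 arrays cannot move a group mean by 1 SD of that group. Staying within it is therefore no sign of steadiness in those runs. BHLH101 in A. petraea roots and AT1G47400 in A. halleri leaves, both in text order, were not among the 4. Their high zinc SDs were 1.52 and 1.48, and both differences rested on high zinc array 1. Counts over all probe sets varied more, and the cause was not tested. As printed, the A. halleri leaf count was 540 (without high zinc array 1) to 1591 with 1 array left out, the A. halleri root count 0 to 17, the A. petraea leaf count 0 to 1, the A. petraea root count 0 to 4 and the count for the species difference in leaf response 21 to 78, or 39 with a pseudocount of 1. In text order, leave-one-out counts were 0 to 1 in A. halleri roots and 0 to 2 in A. petraea leaves. The A. petraea leaf count was 2 with no filter and 0 with a pseudocount of 1, and that in A. halleri leaves was 1 with a pseudocount of 64. Quantile normalization gave 1032 higher and 1142 lower probe sets in printed A. halleri leaves, with a median of all probe sets of 0.13, against 1900 higher and 1075 lower with a median of 0.30 as reported. Leaving out arrays whose organ markers opposed the printed label gave 14 calls in A. petraea leaves with 1 array a side, each lone array assumed to vary like the other groups; 0 arrays were left in 3 printed high zinc groups, so no value was possible there. A block for the replicate number alone moved no count past 1.5 times. A replicate block within organ and species, chosen after seeing the data, gave 1366 calls in printed A. halleri leaves, 1 in printed A. halleri roots and 5 in A. petraea leaves in text order, with AT1G47400 there at 4.22 ± 0.91 and BHLH101 at 2.18 ± 0.60. Leaving out the 2 arrays with genes of both organs was also chosen after seeing the data.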

Other observations

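AT5G65685 was the single probe set called in text order for A. petraea leaves (1.83 ± 0.25, limma adjusted p = 0.00657). It gave 92.7, 117.4 and 92.2 under high zinc, against 10.9, 15 and 26.2 in control, and its pattern was also among those most like AT1G47400 once organ and species means were removed (r = 0.707 over 24 arrays). In A. halleri leaves the same probe set gave 272.7, 171.1 and 212.4 under high zinc, against 232.1, 230.6 and 258.5 in control, and in A. halleri roots 115.7, 88 and 112.4 against 47.5, 50 and 67. In A. petraea roots it stayed dim, at 6.5, 10.2 and 9.1 under high zinc and 5.8, 6.1 and 22.5 in control.

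Depth is not defined for arrays. BHLH101 lay under the pseudocount on several A. halleri arrays, and its differences there are bounded by that floor. No sequence of the members is shown, as no sequence table was used here.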
